A study of Arabidopsis thaliana with 69 samples.

Results

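The comparison described here is the response of Arabidopsis thaliana cultures 9 h after activation of VND7, a transcription factor of the NAC family. Its samples were the 3 arrays of the VND7 line labelled DEX at 9 h and the 3 arrays of the same line labelled DMSO at 9 h, taken by line, treatment and time from the labels. These 6 arrays are part of 69 in the series, of which 51 were of the VND7 line and 18 of an empty-vector line. Each probe set was compared by the log2 difference of the group means, DEX minus DMSO, over 22746 probe sets. The VND7 line carried VND7-VP16-GR behind the 35S promoter, which is active in most plant cells, in the Col-0 ecotype, and the seeds were of the T3 generation. It received 10 µM dexamethasone (DEX) in the induced cultures and the solvent DMSO in the uninduced ones. A second line held the same construct with VP16-GR alone (empty vector) and was measured with DEX and with DMSO at the same time, in 3 arrays each. All cultures were seedlings shaken for 6 days in the dark in liquid medium with sucrose, and RNA was drawn from what a flask held. The tissue label reads hypocotyl. Replicates are labelled as biological.

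VND7 is known as a switch for xylem vessel elements, the water-conducting cells that lay down a secondary wall of cellulose, xylan and lignin and then die and empty themselves. GR is the domain by which the glucocorticoid receptor binds its hormone, and it holds a fusion protein outside the nucleus until DEX is given, and VP16 is a viral domain that strengthens activation of transcription. The question of the comparison is which transcripts differed once the fusion had been free to act for 9 h, and the empty-vector line shows what DEX and VP16-GR did without VND7. In an extract of whole cultures, fewer cells of a type and less RNA per cell cannot be told apart.

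Values are GCRMA signals on the log2 scale, so that a difference of 1 is a doubling. Their lowest value was 2.14, and a value less than 0.3 above it is called at the floor below, with no order among such values. Some probe sets repeat a higher low value of their own, as AT1G29200 does at 3.19 in DMSO arrays. Such values are not counted, so the floor counts below may be too low. The DEX arrays of the VND7 line had medians of 4.90 to 4.95 and 28.1% to 29.1% of values at the floor, against medians of 5.46 to 5.48 and 31.7% to 31.8% at the floor in its DMSO arrays. The 12 arrays at 9 h each correlated best with an array, of any time, that had the same line and treatment label. Correlations over all probe sets ran from 0.986 to 0.993 among the 3 DEX arrays and from 0.989 to 0.992 among the 3 DMSO arrays, and from 0.842 to 0.873 between the treatments. A probe set was called when limma's Benjamini-Hochberg adjusted p over all probe sets was under 0.05 and the difference was at least 1. The number of arrays limits the precision. Of the probe sets 13513 named 1 gene, and none of these named VND7, whose own level is therefore not reported here.

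As deposited, falls outnumbered rises. With DEX 2954 probe sets were called higher, 13.0% of those tested, and 4313 lower, 19.0% of those tested. The median difference was 1.87 among the called rises and −1.92 among the called falls. Differences of 1 to 2 made up 1597 of the rises and 2306 of the falls, while 150 rises and 84 falls were larger than 6. In 2931 of the called rises and 4290 of the called falls all 3 DEX arrays lay on one side of all 3 DMSO arrays. Over all probe sets the groups did not overlap in 11529, or 50.7%. At gene level, with 1 probe set standing for each of 13355 genes, 1626 were called higher (12.2%) and 2147 lower (16.1%), and the gene lists below are read against these shares. The median difference over all genes was 0.

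The split between rises and falls depended on the scale. Centring each array on its own median raised the median difference of all probe sets by 0.55 and gave 5189 rises and 2934 falls, so that 63.9% of calls were rises, against 40.6% as deposited. Quantile normalization gave 3375 rises and 3746 falls. All 2954 rises were also called after centring and 2865 after quantile normalization, and 2934 and 3684 of the 4313 falls.

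**Figure D1:**
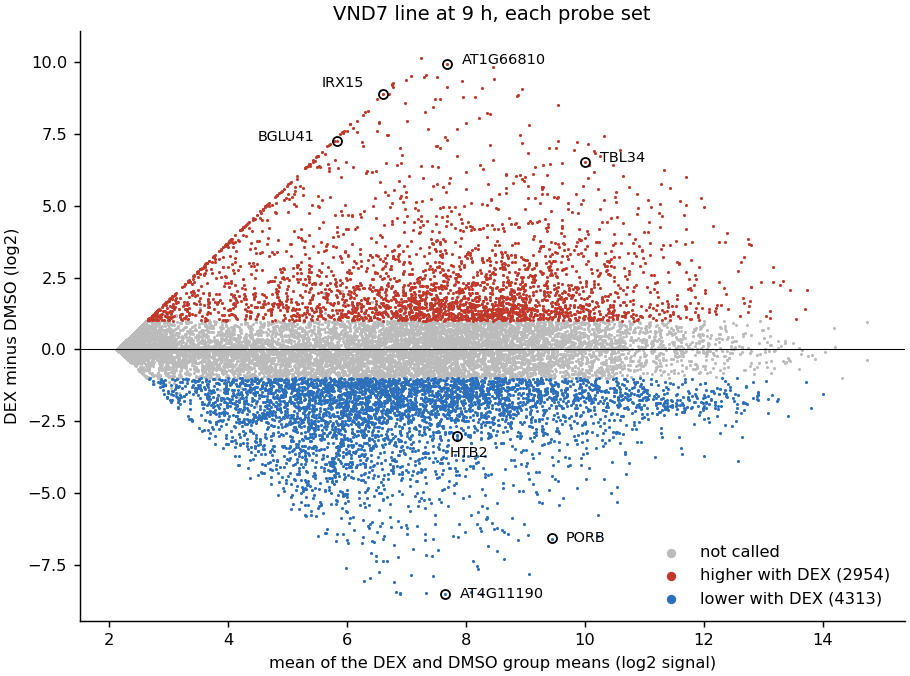
Difference between DEX and DMSO (y axis, log2) against the mean of both groups (x axis, log2 signal) for each of 22746 probe sets in the VND7 line at 9 h. The 2954 called rises reach 9.95 for AT1G66810 among named genes, the 4313 called falls reach −8.51 for AT4G11190, and the straight edges are probe sets at the floor in one of the groups.

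Some transcripts went between the floor and a clear signal. A group of 91 probe sets, 50 of them naming 1 gene, lay at the floor in all 3 DMSO arrays and at 6 or above in all 3 DEX arrays. The opposite pattern was found in 5 probe sets, 1 of them naming a gene. In the empty-vector line 0 probe sets did either, and 4848 probe sets stayed at the floor in all 12 arrays.

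AT1G66810, a CCCH zinc finger protein also called AtC3H14 that is known to act on secondary wall genes, had the largest rise of any named gene. It read 12.43, 12.82 and 12.74 in the DEX arrays, against 2.75, 2.64 and 2.75 in the DMSO arrays. Its DMSO values of 2.64 and 2.75 recur at other times, so the rise may be a lower bound. The groups lay far apart, with means of 12.66 ± 0.21 with DEX and 2.71 ± 0.07 with DMSO (SD, n = 3 each), a difference of 9.95 ± 0.11 (SE; limma adjusted p = 3.24e-11). It was the 1 gene measured of 30 on the list of secondary wall regulators.

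Xylan, the main hemicellulose of the secondary wall, is built on a xylose backbone that is then decorated, and all 5 measured genes of the xylan list rose, with a median difference of 6.50. IRX15 and IRX15-L are related proteins needed for normal xylan. IRX15 read 11.15, 10.83 and 11.21 with DEX and 2.17 in each of the 3 DMSO arrays, where it was at the floor, so its difference of 8.89 ± 0.09 (SE) is a lower bound. IRX15-L read 13.00, 13.03 and 12.99 with DEX, against 6.20, 5.48 and 6.36 with DMSO. It was thus well above the floor without induction, and it rose by 6.99 ± 0.20 (SE).

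TBL34, which adds acetyl groups to xylan, read 13.29, 13.24 and 13.25 in DEX arrays, against 6.77, 6.87 and 6.62 in DMSO arrays. Its rise of 6.50 ± 0.17 (SE) had a limma adjusted p of 4.39e-09. GUT2, a xylosyltransferase of the backbone also known as IRX10, rose by 6.41 ± 0.08, and its close relative GUT1 rose by 1.19 ± 0.14. GUT1 read 9.45, 9.94 and 9.98 with DEX, against 8.56, 8.66 and 8.60 with DMSO, so the groups were apart but the step was small beside that of GUT2. None of the 5 was called in the empty-vector line, where differences ran from −0.23 for GUT1 to 0.00 for IRX15. TBL34 was the 1 rise among 22 measured members of the TBL family as deposited, and 6 fell, TBL36 by 3.47 and TBL25 by 3.15. After centring, 3 rose and 5 fell.

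Lignin gave a mixed picture. HCT, which makes the ester from which most lignin monomers derive, read 11.01, 11.15 and 11.34 with DEX, against 10.42, 10.28 and 10.74 with DMSO. The groups did not overlap, but the difference of 0.68 was under the threshold, which it passed after centring. CCR2, a cinnamoyl-CoA reductase, differed by 0.15 with adjusted p = 0.701 (limma), and no other gene of the 15 on the monomer list was measured. The shikimate pathway supplies the aromatic amino acid from which monomers are made, and the 2 measured genes of its list, AT5G66120 and AT1G22410, rose by 2.04 ± 0.10 and 1.29 ± 0.08 (SE).

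Peroxidases and laccases couple monomers into lignin in the wall, and the list for this step went both ways, with 2 rises, 3 falls and 2 uncalled among 7 measured members. AT5G51890 read 14.18, 14.08 and 14.15 with DEX, against 10.56, 10.18 and 10.44 with DMSO, a rise of 3.74 ± 0.09 (SE; limma adjusted p = 3.88e-09). AT5G66390, peroxidase 72, read 13.28, 12.88 and 13.04 with DEX and 10.20, 9.51 and 10.62 with DMSO. Both genes were already well above the floor without induction. The 3 falls were AT2G22420 by 3.06, AT4G33420 by 1.39 and AT2G41480 by 1.24. The call of AT2G41480 was lost when DEX replicate 3 was left out, with a difference of −0.89, and also after quantile normalization and with the spread of the 6 VND7 arrays alone. The calls of AT4G33420 and AT2G41480 were lost after centring. AT5G64120, also called PRX71, differed by 0.54, which passed the threshold after centring. PRX52, a peroxidase linked to lignin of stem fibres, was at the floor in all 12 arrays, as was the laccase LAC16.

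Vessel elements digest themselves after wall deposition, with proteases and nucleases. Of the 6 measured genes on the vessel cell death list 4 rose, 1 fell and 1 was not called, with a median of 3.50. AT4G04460 read 13.56, 13.57 and 13.71 with DEX, against 6.26, 6.60 and 7.26 with DMSO, a rise of 6.91 ± 0.31 (SE). AT4G18425 read 12.74, 11.65 and 12.13 with DEX and 6.87, 6.85 and 6.97 with DMSO. The serine carboxypeptidase-like gene scpl48 read 14.58, 14.28 and 14.43 with DEX, against 10.26, 10.18 and 10.66 with DMSO, a rise of 4.06 ± 0.13 (SE). In all 3 the groups lay apart.

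The vacuolar processing enzymes, cysteine proteases that act when the vacuole breaks down, differed among themselves. ALPHA-VPE read 7.94, 5.76 and 6.16 with DEX, against 3.80, 3.20 and 4.06 with DMSO, so DEX replicate 1 was the highest and no arrays of the groups overlapped. Its rise of 2.93 ± 0.52 (SE) had a limma adjusted p of 0.00105, which became 0.135 when the spread was taken from all 69 arrays. GAMMA-VPE fell by 1.03, a call lost when DEX replicate 2 (−0.96) or DMSO replicate 3 (−0.70) was left out, after centring and with the spread of the 6 VND7 arrays alone. BETA-VPE differed by −0.47, with overlapping groups.

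Autophagy encloses parts of the cell in membrane for digestion. Among 11 measured autophagy genes 5 rose and 0 fell, with a median of 0.87. ATG8H, a ubiquitin-like protein of the autophagosome membrane, read 10.79, 10.47 and 10.35 with DEX and no more than 7.58 with DMSO, a rise of 3.15 ± 0.20 (SE). ATG8D rose by 1.61, ATG3, the enzyme that attaches ATG8 to lipid, by 1.31, and AT5G66930, known as ATG101, by 1.55. With the spread of all 69 arrays 3 members were called, and AT5G66930 was not. Of 12 ubiquitin-specific proteases 4 rose and 1 fell, and the 1 fall, of UBP15 by 1.51, was lost under both scalings.

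Serine carboxypeptidase-like genes split almost evenly, with 6 rises and 7 falls among 29 measured. SCPL43 was at the floor in all DMSO arrays and read 7.87, 8.93 and 8.81 with DEX, at least 6.40 higher. The gene scpl20 rose by 4.26 and scpl29 by 3.25, while scpl35 fell by 4.26. Subtilases, another family of serine proteases, had 1 rise and 3 falls among 9, with SBTI1.1 up by 2.36 and SBT4.12 and SBT1.3 down by 6.52 and 5.12.

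Secretion and the cytoskeleton carry wall material to its place, and several of their genes rose. The exocyst is a complex that tethers vesicles at the plasma membrane, and 4 of 10 measured exocyst and SNARE genes rose while 0 fell (median 0.96). After centring 8 rose. SEC5B read 6.34, 6.73 and 6.49 with DEX, against 3.91, 4.29 and 4.05 with DMSO. EXO84B rose by 1.97 ± 0.15 (SE), SEC15B by 1.94 ± 0.14 and SEC15A by 1.63 ± 0.23, each with DEX arrays above all DMSO arrays.

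Vacuolar sorting proteins, many of them parts of the ESCRT-III complex that buds vesicles into endosomes, had 4 rises and 1 fall among 10. VPS24.1, VPS20.1, VPS2.1 and VPS60.1 rose by 1.24 to 1.84, and VPS2.2 fell by 2.28. VHA-A1, the subunit that places the proton pump V-ATPase in the trans-Golgi network, rose by 2.16, while VHA-A2 and VHA-A3 of the vacuolar membrane differed by −0.03 and 0.23. PRA1 proteins, which act in vesicle traffic, had 2 rises, led by PRA1.B4 at 3.00, and 2 falls, led by PRA1.F1 at −4.29, among 9.

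KINESIN-13A, a motor that takes microtubules apart and acts in the patterning of pits in the vessel wall, was the 1 measured gene of the wall patterning list. It read 11.37, 11.55 and 11.70 with DEX, against 9.02, 8.89 and 8.96 with DMSO, a rise of 2.58 ± 0.09 (SE). NET proteins, which bind actin, had 3 rises and 0 falls among 10, and NET2D read 9.31, 9.22 and 9.37 with DEX, against 4.25, 4.18 and 4.18 with DMSO. ACT11, an actin, rose by 1.72 ± 0.20. Tubulins did not rise as deposited: TUB5 fell by 3.24 and TUB1 by 1.66, and the other 5 of 7 differed by −0.50 to 0.67. TUB9, at 0.67, was called higher after centring, and the fall of TUB1 was not called with the spread of all 69 arrays. IQD31, of a family that links calmodulin to microtubules, rose by 2.18, while 3 others of 15 fell. Those falls were not far above the 16.1% of all genes called lower, and that of IQD22 was lost under both scalings. After centring 2 IQD genes rose. TRM19 and TRM20, of a family that recruits proteins to microtubules, rose by 3.80 and 2.02, while 4 others of 14 fell. Neither the rise of TRM20 nor the fall of TRM28 was called with the spread of all 69 arrays. The fall of TRM28 was also lost under both scalings and without DEX replicate 3 or DMSO replicate 3. After centring 4 TRM genes rose.

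**Figure D2:**
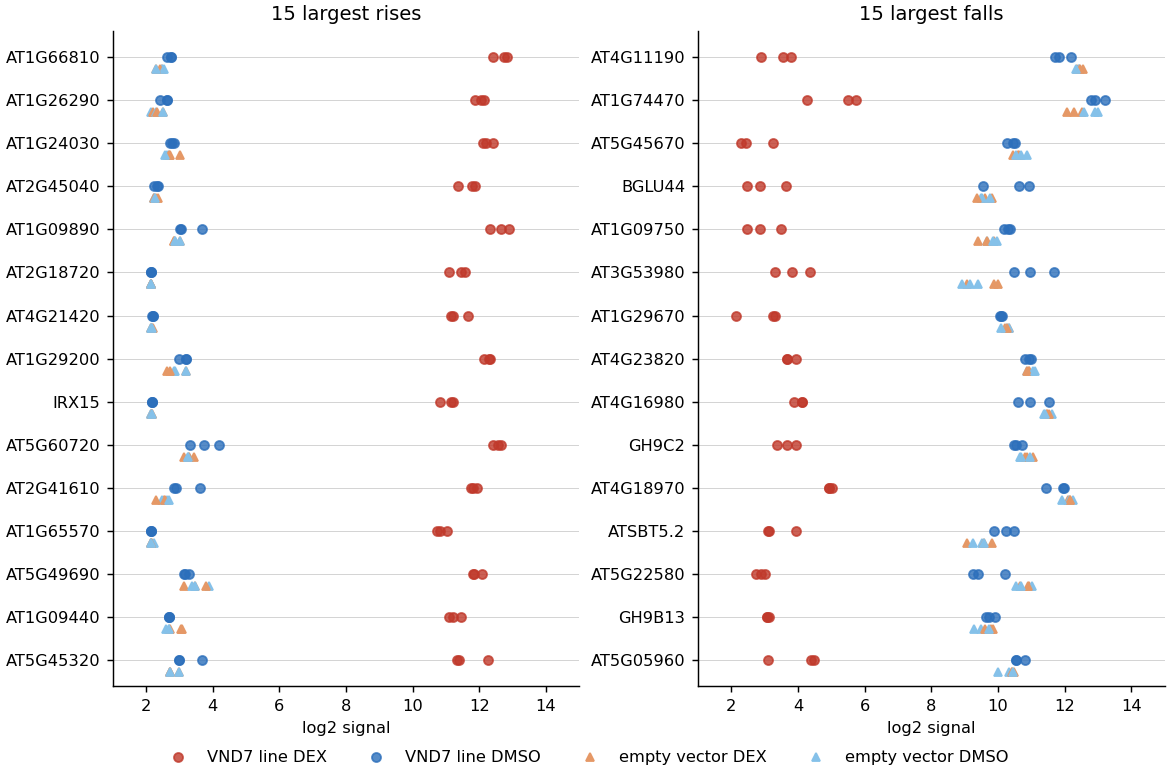
Log2 signal (x axis) of the genes with the 15 largest rises (left panel) and the 15 largest falls (right panel) in every array at 9 h, circles for the VND7 line and small triangles for the empty-vector line, DEX in red and orange and DMSO in dark and light blue. The DEX circles of the rises lie at 10.7 or above and their DMSO circles at 4.18 or below, those of the falls at 5.74 or below with DEX and at 9.24 or above with DMSO, and the empty-vector triangles lie nearer to the DMSO circles than to the DEX circles.

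Named by size, the 15 largest rises ran from 8.44 to 9.95, and 14 of them are known here by locus code only. In 5 of the 15 the DMSO group was at the floor as defined above. AT1G29200, AT1G26290 and AT1G09440 repeated a low DMSO value of their own (3.19, 2.62 and 2.70), so their rises may be lower bounds too. The same holds for AT1G24030, AT5G60720, AT5G49690 and AT5G45320. Each had a DMSO value at 9 h (2.71, 3.74, 3.15 and 3.00) that recurs in DMSO arrays of other times. AT1G26290 read 12.15, 12.07 and 11.87 with DEX, against 2.62, 2.62 and 2.42 with DMSO. AT1G24030 rose by 9.47 ± 0.12 (SE), AT2G45040 by at least 9.36, AT1G09890 by 9.36 ± 0.20 and AT2G18720 by at least 9.23. For AT2G18720 all 3 DMSO arrays read 2.14, the floor itself, and the DEX arrays 11.08, 11.56 and 11.45.

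Next in size were AT4G21420, AT1G29200, IRX15, AT5G60720, AT2G41610, AT1G65570, AT5G49690, AT1G09440 and AT5G45320. AT5G45320 had the largest standard error of the 15, at 12.26, 11.33 and 11.40 with DEX and 3.00, 3.00 and 3.68 with DMSO, and still rose by 8.44 ± 0.27 (SE; limma adjusted p = 1.92e-08). AT1G65570 lay at 11.03, 10.73 and 10.82 with DEX and at the floor with DMSO. In the empty-vector line the differences of these 15 genes ran from −0.13 to 0.29 and none was called.

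The 15 largest falls ran from −6.65 to −8.51, and 11 have a locus code only. AT4G11190 read 3.54, 2.88 and 3.79 with DEX, against 11.83, 11.72 and 12.20 with DMSO, a difference of −8.51 ± 0.21 (SE; limma adjusted p = 3.66e-09). AT5G45670 read 2.30, 3.25 and 2.43 with DEX and 10.52, 10.46 and 10.26 with DMSO. In none of the 15 was the DEX group as a whole at the floor as defined above. The value of 2.88 for AT4G11190 in DEX replicate 2 recurs in DMSO replicate 2 at 1 h, so its fall may be larger than read.

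BGLU44, a beta-glucosidase, read 2.86, 2.47 and 3.62 with DEX and 10.63, 10.93 and 9.54 with DMSO, a difference of −7.38 ± 0.38. ATSBT5.2, a subtilase, fell by 6.81, and GH9C2 and GH9B13, endoglucanases of the wall, fell by 6.94 and 6.66. The remaining falls were those of AT1G74470, AT1G09750, AT3G53980, AT1G29670, AT4G23820, AT4G16980, AT4G18970, AT5G22580 and AT5G05960. A second probe set for AT4G16980 differed by −0.004 and was not called, so that its fall of 6.99 rests on 1 of 2 probe sets. The empty-vector differences of the 15 genes ran from −0.54 to 0.49 with none called.

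The primary wall is the thin wall of growing cells. COB, which orients cellulose in expanding cells, read 9.12, 9.44 and 9.54 with DEX, against 11.18, 11.05 and 11.22 with DMSO, a difference of −1.78 ± 0.10 (SE; limma adjusted p = 4.66e-07). It was the 1 measured gene of 8 on the primary wall cellulose list. Xyloglucan endotransglucosylases, which cut and rejoin the hemicellulose of the primary wall, had 5 falls and 0 rises among 9 (median −1.45). XTH16 read 4.76, 3.88 and 3.41 with DEX, against 9.51, 9.34 and 8.77 with DMSO, and XTH19 fell by 4.52.

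Expansins, which loosen walls, had 8 falls and 3 rises among 18 measured, of which 3 were at the floor in both groups. EXPA8 read 3.23, 3.23 and 3.09 with DEX and 9.23, 7.92 and 9.34 with DMSO, a difference of −5.65, and EXPB3 fell by 4.25. EXPA21 was at the floor in all DMSO arrays and read 6.88, 5.60 and 6.37 with DEX, and EXPB1 rose by 2.30. The third rise, of EXLA1 by 1.03, fell under the threshold when any of 4 arrays was left out (DEX replicates 2 and 3, DMSO replicates 1 and 2), at 0.88 to 0.99. It also did so after quantile normalization.

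The GH9 endoglucanases, which trim cellulose, were divided between strong rises and strong falls. Of 15 measured, 4 rose, 3 fell and 6 were at the floor in both groups. GH9B18 read 8.12, 8.28 and 7.97 with DEX against the floor in all DMSO arrays, and GH9B5 read 7.90, 8.63 and 8.90 with DEX, against 3.35, 3.45 and 3.58 with DMSO. GH9B17 also left the floor, by at least 4.87. GH9C2, in contrast, read 3.66, 3.36 and 3.92 with DEX and 10.54, 10.49 and 10.73 with DMSO, and GH9B13 read 3.13, 3.08 and 3.08 with DEX and 9.63, 9.74 and 9.90 with DMSO.

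Among glucan synthases of the CSLC family, which make the xyloglucan backbone, CSLC5 fell by 4.08 and CSLC04 by 2.52 while CSLC6 rose by 1.59. Pectin methylesterases and inhibitors had 2 falls among 4, PMEPCRF by 2.81 and ATPMEPCRB by 1.56. BGLU41 was the 1 rise beside 4 falls among 20 beta-glucosidases as deposited. It read 9.46, 9.45 and 9.50 with DEX and was at the floor with DMSO, a difference of at least 7.26. The share of falls was not far above the 16.1% of all genes called lower, and centring gave 2 rises and 2 falls. The fall of BGLU42 was lost under both scalings. That of BGLU16 was lost after centring and without DEX replicate 2, DEX replicate 3 or DMSO replicate 3. It was also lost with each other choice of the arrays that gave the spread. PRXR1, a peroxidase of another list, fell by 2.64 ± 0.09.

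In these dark-grown cultures all 7 measured nuclear genes of the photosystems and light harvesting were called lower, with a median of −3.22. PSBY, a small protein of photosystem II, read 3.50, 4.23 and 3.64 with DEX, against 10.70, 10.37 and 9.62 with DMSO, a difference of −6.44 ± 0.29 (SE). The antenna protein LHCB4.2 fell by 4.94, LHCB4.1 by 3.22, PSAN by 4.30 and PSAE-1 by 2.75. LHCB4.3 fell by only 1.02 and lost its call when any of 4 arrays was left out (DEX replicates 2 and 3, DMSO replicates 1 and 3), at −0.96 to −0.90, and under both scalings. The seventh, PSBW, fell too, and its call was lost after centring and with the spread of all 69 arrays.

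Chlorophyll synthesis had 7 falls and 1 rise among 11 measured genes. AT1G74470, geranylgeranyl reductase, which supplies the phytol tail of chlorophyll, read 4.27, 5.74 and 5.49 with DEX, against 13.20, 12.91 and 12.78 with DMSO, the second largest fall among named genes at −7.80 ± 0.34 (SE). PORB, the light-dependent protochlorophyllide oxidoreductase, read 5.98, 6.22 and 6.26 with DEX, against 12.53, 13.03 and 12.64 with DMSO. CHLM, a methyltransferase of the magnesium branch, fell by 3.70. HEMA2, a glutamyl-tRNA reductase at the entry of the pathway that also makes haem, went the other way, at 9.91, 9.61 and 9.76 with DEX and 6.61, 6.09 and 6.47 with DMSO, a rise of 3.37 ± 0.14.

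Carbon fixation had 3 falls among 3 measured genes. PRK, phosphoribulokinase, read 2.87, 4.47 and 4.11 with DEX, against 10.18, 10.25 and 9.58 with DMSO, SBPASE fell by 4.44 and RCA, rubisco activase, fell by 1.70. The call of RCA was lost with the spread of all 69 arrays. Of 69 measured genes of the plastid genome 8 rose and 5 fell as deposited, the median was 0.32, and psbC fell by 1.95 while ndhK rose by 1.75. As deposited the share of rises was near the 12.2% of all genes called higher, and that of falls under the 16.1% called lower. The counts of these plastid genes depended on the setting, with 29 rises and 3 falls after centring. With the spread of all 69 arrays there were 2 rises and 0 falls.

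**Figure D3:**
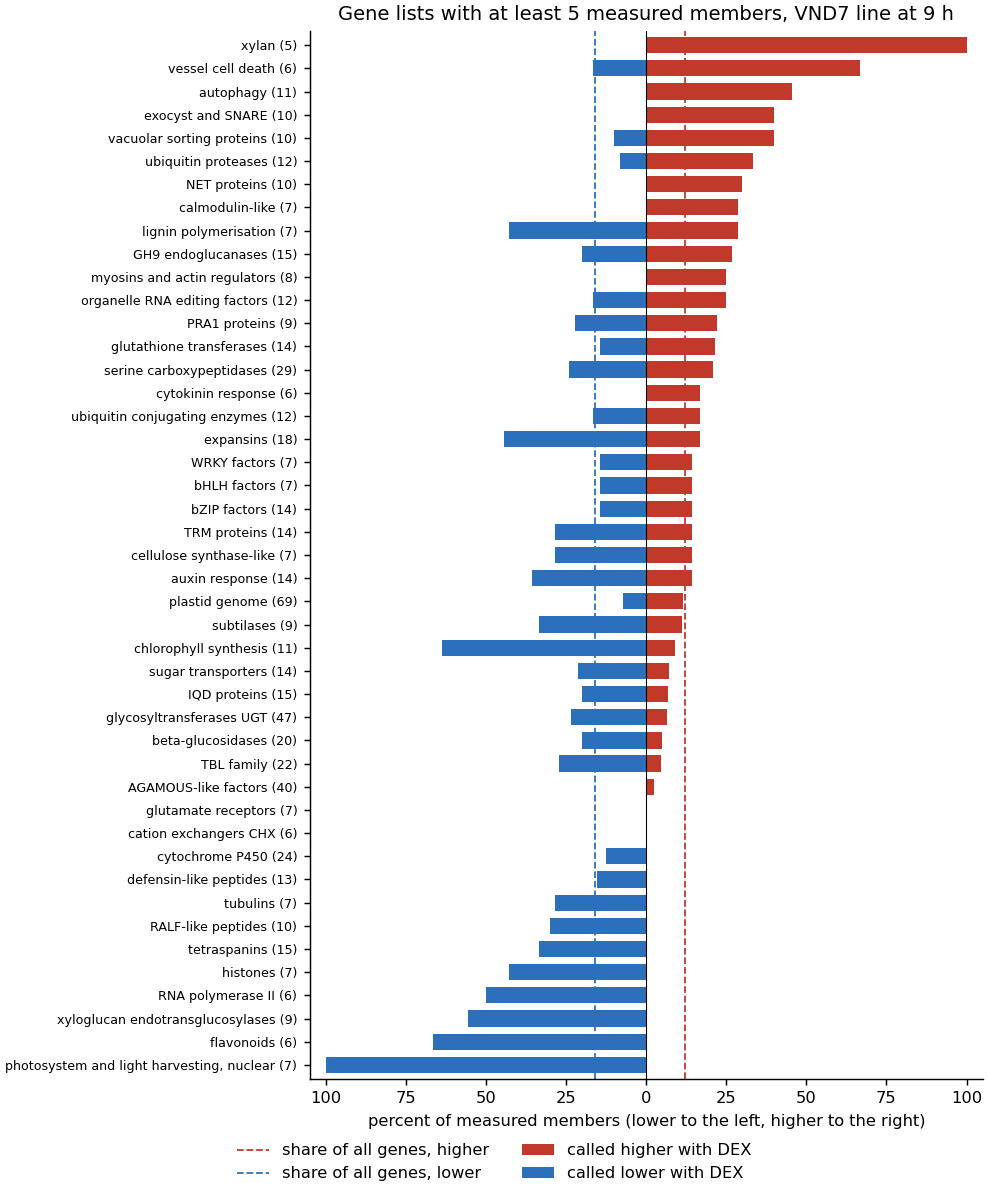
Share of measured members (x axis, percent) called higher with DEX (red, to the right) and lower with DEX (blue, to the left) in each gene list with at least 5 measured members, cell type markers aside, whose number stands in brackets. Dashed lines mark the shares over all genes, 12.2% higher and 16.1% lower, and xylan and the nuclear photosystem genes are the drawn lists with all members called one way.

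Of 4 measured genes of the cambium and vascular identity list 3 fell and 0 rose (median −1.67). CLE41, a peptide that keeps cambium cells dividing and holds back xylem formation, read 4.61, 5.94 and 5.33 with DEX, against 7.89, 8.25 and 7.47 with DMSO, a difference of −2.57 ± 0.30 (SE; limma adjusted p = 7.71e-05). CLE44, which yields the same active peptide, differed by 0.29, with a limma adjusted p of 0.284. LHW, a bHLH factor needed for the number of vascular cells, fell by 1.89 ± 0.08. PHV, an HD-ZIP III factor of vascular patterning, fell by 1.44 ± 0.21, a call lost under both scalings.

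Of 7 measured histone genes 3 fell and 0 rose. HTB2, a histone H2B, read 6.05, 6.54 and 6.48 with DEX, against 9.56, 9.57 and 8.93 with DMSO, and HTB1 and the linker histone HIS1-3 fell by 2.53 and 2.62. The other 4 differed by −0.65 to −0.52. PRL, a subunit of the helicase that licenses DNA replication, fell by 3.13 ± 0.30. The Aurora kinases of mitosis diverged: AUR2 read 9.81, 10.70 and 10.46 with DEX, against 7.66, 8.49 and 7.79 with DMSO, AUR1 fell by 1.59, and AUR3 was at the floor. RNA polymerase II subunits had 3 falls among 6, led by NRPB9B at −1.85 and NRPB12 at −1.59. The third, NRPB7, at −1.03, lost its call without DEX replicate 1 (−0.98), DEX replicate 3 (−0.95) or DMSO replicate 2 (−0.95) and under both scalings.

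Auxin response genes had 5 falls and 2 rises among 14 measured. IAA30 and IAA20 belong to the same branch of auxin response repressors and moved in opposite directions. IAA30 was at the floor with DMSO and read 7.80, 7.50 and 7.57 with DEX, at least 5.28 higher. IAA20 read 3.44, 3.51 and 4.31 with DEX, against 7.68, 7.49 and 7.18 with DMSO, a difference of −3.69 ± 0.23 (SE). GH3.3 and WES1, enzymes that join auxin to amino acids, fell by 3.87 and 2.69, IAA29 rose by 2.65, and WAG2, a kinase acting on auxin transport, fell by 3.32. Of 3 homeobox factors HAT2, induced by auxin in other settings, fell by 4.15. Of the gibberellin receptors, GID1A and GID1C fell by 1.08 and 1.06 and GID1B differed by 0.45. Both falls were lost under both scalings, and without any of 2 arrays each, at −0.99 to −0.89 for GID1A (DEX replicate 3, DMSO replicate 3) and at −0.99 to −0.96 for GID1C (DEX replicate 1, DMSO replicate 1).

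Of 7 bHLH factors 1 rose and 1 fell, both of them regulators of iron supply: bHLH34 read 8.75, 9.47 and 9.41 with DEX, against 6.04, 6.05 and 5.77 with DMSO, and bHLH115 fell by 1.39, a call lost after centring. Of 14 bZIP factors BZIP28, an activator of the response to unfolded protein in the endoplasmic reticulum, rose by 1.69 ± 0.06, BZIP53 rose by 1.17, BZIP61 fell by 5.17 and bZIP44 by 2.08. Of 7 WRKY factors WRKY53 rose by 1.40 and WRKY22 fell by 1.64, the rise being lost with the spread of all 69 arrays. The counts of bHLH, bZIP and WRKY factors were near the 12.2% and 16.1% of all genes called higher and lower. Of 40 AGAMOUS-like factors 30 were at the floor in both groups and 1 was called.

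Of 14 measured sugar transporters 3 fell and 1 rose, the falls being not far above the 16.1% of all genes called lower. SWEET11, a sucrose exporter, read 8.88, 8.70 and 8.54 with DEX, against 11.82, 11.44 and 12.31 with DMSO, a difference of −3.15 ± 0.19 (SE) that was not called with the spread of all 69 arrays. SWEET1 fell by 3.48 and SWEET3 by 2.35. The rise, of SWEET16 by 1.31 with a limma adjusted p of 0.0152, was lost without DEX replicate 1 (adjusted p = 0.0514) or DMSO replicate 2 (adjusted p = 0.0578). It was also lost with the spread of all 69 arrays or of the 6 VND7 arrays alone. Of 6 measured flavonoid genes 4 fell, against 1 with the spread of the 6 VND7 arrays alone. DFR, of anthocyanin synthesis, was at the floor with DEX and read 8.76, 7.23 and 3.84 with DMSO, so its level without DEX differed widely between replicates.

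Among 47 measured UDP-glycosyltransferases 11 fell and 3 rose, the largest rise being that of UGT74F1, at 7.46, 10.09 and 9.34 with DEX and 5.58, 5.78 and 4.21 with DMSO. After centring 8 rose and 5 fell. Of 14 glutathione transferases GSTU25 rose by 5.10, beside −1.38 and no call in the empty-vector line, and GSTU20 fell by 6.38, reading 2.73, 2.14 and 2.49 with DEX and 9.14, 9.37 and 7.98 with DMSO. Tetraspanins, membrane proteins of cell contacts, had 5 falls and 0 rises among 15 as deposited, led by TET2 at −2.92. After centring 2 rose.

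RALF-like and defensin-like genes encode small secreted peptides. Of 10 RALF-like genes 3 fell and 0 rose as deposited, RALFL34 by 5.11, RALFL32 by 2.33 and RALFL33 by 2.06. Of 13 defensin-like genes 2 fell and 0 rose, LCR69 by 4.82 and LCR68 by 4.01, a share near the 16.1% of all genes called lower. At the floor in both groups were 5 RALF-like and 8 defensin-like genes. After centring 1 gene of each family was called higher. CML30 and CML23, calmodulin-like calcium sensors, rose, CML30 by 3.60 ± 0.21 (SE), and the other 5 of 7 were not called. Of 12 measured genes on a list of organelle RNA editing and processing factors 3 rose and 2 fell. LPA66, an editing factor of chloroplast RNA, read 11.05, 9.69 and 10.02 with DEX, against 4.25, 4.40 and 4.23 with DMSO, a rise of 5.96 ± 0.29 (SE). OTP43 rose by 2.56 and CRR28 by 1.72. CRR21 fell by 2.21 and OTP81 by 1.02, the call of OTP81 being lost without DEX replicate 2 (−0.93), DEX replicate 3 (−0.94) or DMSO replicate 2 (−0.70) and under both scalings. As deposited no member was called among 7 glutamate receptors, 6 cation exchangers of the CHX family, 4 YUCCA enzymes and 3 SKS proteins. Of these, in the same order, 4, 4, 3 and 1 were at the floor in both groups. CHX20 was called higher after centring (1.54), after quantile normalization (1.35) and without DEX replicate 1 or 2 or DMSO replicate 1 or 3. CHX16 and sks16 were called higher after centring, at 1.15 and 1.01.

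Of 4 measured reference genes commonly used to scale transcript levels none was called as deposited. Their differences ran from −0.19 for AT4G34270 to 0.91 for PEX4, and 3 of the 4 were called higher after centring. PEX4 was also called, at 1.01, when DMSO replicate 3 was left out.

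Markers of cell types were read from short lists. Of 14 xylem markers 5 were measured, all 5 rose, and their summed level was 63.1 to 63.5 in the DEX arrays, against 23.9 to 24.9 in the DMSO arrays. They include genes already described, so they are no separate evidence. The 2 measured markers of green tissue, PORB and LHCB4.1, summed to 13.9 to 14.9 with DEX and 23.9 to 24.7 with DMSO. OPS of the phloem differed by −0.74 and the root hair genes EXPA7 and EXPA18 by 0.66 and −0.01, none of them called as deposited. EXPA7 was called higher after centring, and OPS was called lower, at −1.03, when DMSO replicate 1 was left out. FMA of the stomata was at the floor in all 12 arrays, and none of the epidermis and endodermis markers was measured. The part of changes in cell types in the results above was not tested.

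The empty-vector line shows how much of the response DEX gave without VND7. There 18 probe sets were called, 0.0791% of those tested, 17 higher and 1 lower, while 1033 had an unadjusted p under 0.05. Of the 18, 3 were called in the same direction in the VND7 line, 3 in the opposite direction and 12 not at all. With the spread of the 6 empty-vector arrays alone 5 were called, after centring 33, and 39 when the 4848 probe sets at the floor in all 12 arrays were left out. AT4G31470 read 7.25, 6.86 and 7.18 with DEX and 4.48, 4.76 and 4.21 with DMSO in the empty-vector line. Its difference of 2.62 ± 0.16 (SE) there stands beside 0.08 in the VND7 line.

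AT1G72500 moved in opposite directions in the lines. It read 8.95, 8.95 and 8.73 with DEX and 7.52, 7.40 and 7.41 with DMSO in the empty-vector line, and 4.73, 4.61 and 4.73 with DEX and 7.29, 7.42 and 7.29 with DMSO in the VND7 line. The DMSO arrays of the lines were alike, and the DEX arrays lay on either side of them. AT3G15720, AT1G28160 and AT3G02500 were higher with DEX in the empty-vector line by 2.64, at least 2.49 and at least 1.56, and AT2G29290 was lower, at −1.66. None of these 4 was called in the VND7 line.

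**Figure D4:**
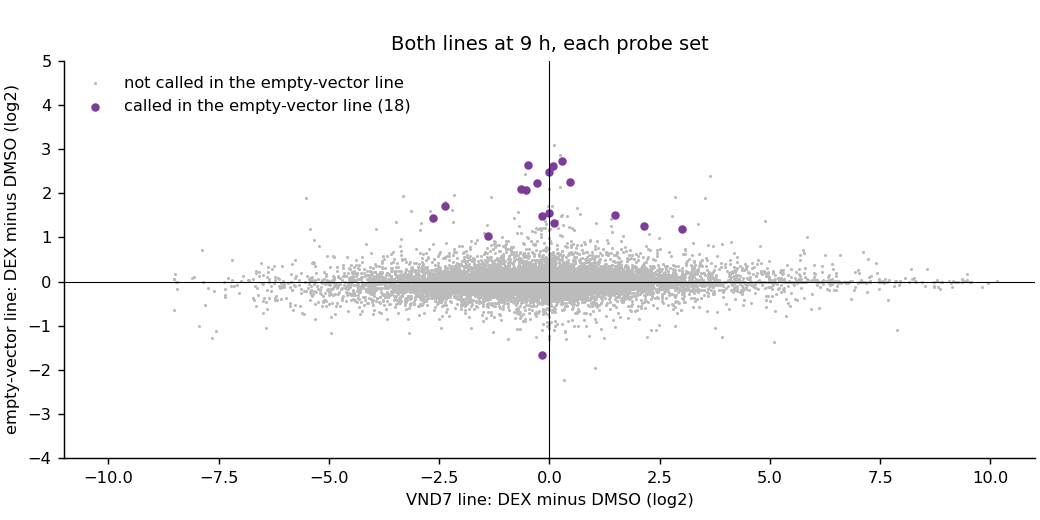
DEX minus DMSO at 9 h (log2) in the VND7 line (x axis) and in the empty-vector line (y axis) for each of 22746 probe sets. The VND7 line spreads from about −8.51 to 9.95 among named genes, the empty-vector line stays within 3.09 of 0, and purple points are the 18 probe sets called in the empty-vector line.

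The difference between the DEX effects of the lines, VND7 minus empty vector, was called in 7014 probe sets, 30.8% of those tested, with 2861 higher and 4153 lower. Of the 7267 probe sets called in the VND7 line, 6625 (91.2%) were also called the same way in this difference, which shares the VND7 arrays with them. The difference of effects was 9.98 ± 0.16 (SE) for AT1G66810 and −8.58 for AT4G11190, close to the VND7 effects alone, since the empty-vector effects of these genes were −0.04 and 0.07.

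The same genes were followed through the other times of the VND7 line. Some arrays outside 9 h read like the other treatment in these genes: AT1G66810 and TBL34 were high in 1 DMSO array at each of 0, 1, 6 and 24 h. AT1G66810 was at 2.54 in DEX replicate 3 at 1 h, at 6.79 in DEX replicate 2 at 24 h and between 2.75 and 3.04 in all 3 DEX arrays at 48 h. Values at those times are therefore given as read, by label, with no test. Over the probe sets called higher at 9 h the median difference was 0.32 at 1 h, 1.56 at 3 h, 1.39 at 6 h, 1.87 at 9 h, 1.38 at 12 h, 0.82 at 24 h, 1.36 at 30 h and 0.11 at 48 h. Over those called lower it was −0.37, −1.81, −1.36, −1.92, −1.52, −0.80, −1.55 and −0.26 at the same times. Both sets were chosen by their 9 h values, so their larger medians at 9 h cannot be read as a peak of the response. At 3 h, 74.1% of the probe sets higher at 9 h had all DEX arrays above all DMSO arrays, against 15.9% of all. The shares were 66.1% against 16.7% at 6 h, 76.0% against 16.9% at 12 h and 80.0% against 22.8% at 30 h. They were only 0.9% against 0.4% at 1 h, 18.7% against 3.6% at 24 h and 18.5% against 9.5% at 48 h. Of those lower at 9 h, 88.4% had all DEX arrays below all DMSO arrays at 3 h, against 24.6% of all. At 24 h it was 11.5% against 4.2%, and at 30 h 86.9% against 25.8%.

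Individual genes had their own courses. AT1G66810 read 12.21, 11.44 and 12.60 with DEX at 3 h. At 30 h its DEX arrays read 10.64, 10.04 and 10.31, against 12.43, 12.82 and 12.74 at 9 h. Its DEX arrays at 9 h thus lay above those at 30 h without overlap. ALPHA-VPE ran the other way, at 7.94, 5.76 and 6.16 with DEX at 9 h and 10.86, 11.23 and 10.81 at 30 h, against 3.19 to 3.38 with DMSO at 30 h. IRX15 was at 2.83 in DEX 3 h replicate 2 and at 3.07 and 2.78 in DEX 12 h replicates 1 and 3, while DEX 3 h replicates 1 and 3 read 11.05 and 10.95, DEX 12 h replicate 2 read 11.26 and no DEX array of 9 h was under 10.83. In those 3 arrays AT1G66810 was nevertheless high, at 11.44, 11.59 and 11.35.

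**Figure D5:**
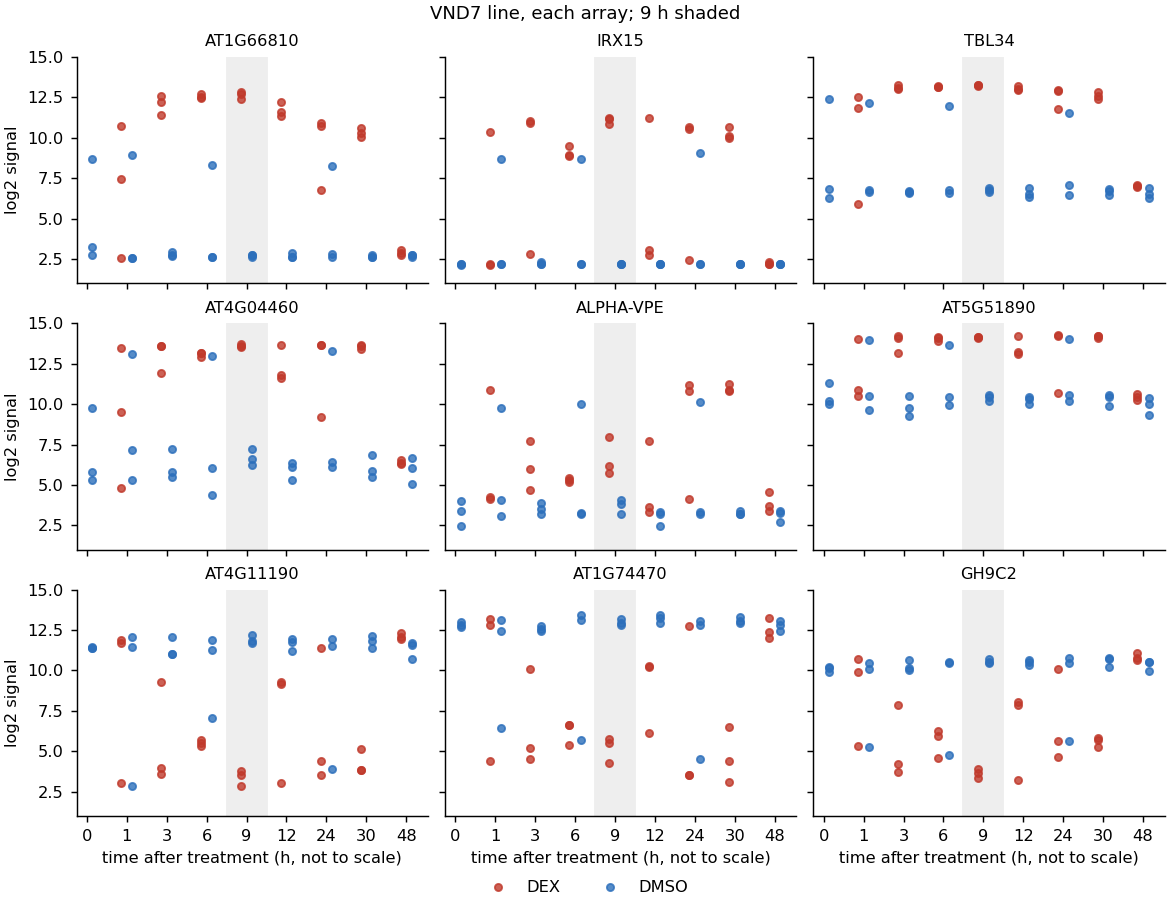
Log2 signal (y axis) of 9 genes in every array of the VND7 line by time after treatment (x axis, h, not to scale), DEX in red and DMSO in blue, with 9 h shaded. At 9 h the 3 DEX arrays lie apart from the 3 DMSO arrays in all 9 genes, while at every other time but 30 h single arrays or whole groups sit near the other label in some of the genes.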

How the data were processed

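Total RNA of 69 cultures was hybridised to Affymetrix ATH1 arrays with 1 colour. The deposited values of the authors are log2 signals per probe set, made with GCRMA per the submitters' processing notes, whose version and settings are not given in the sources used here; they were used as deposited. GCRMA sets dim probe sets to a floor, and the repeated low values differ between probe sets, so that differences from the floor are lower bounds. Only values less than 0.3 above the lowest, 2.14, were counted as at the floor. Of 22810 probe sets 64 controls were left out, and 22746 were tested. Gene names came from the platform annotation, updated through the RefSeq gene table: 13513 probe sets named 1 gene, 503 several and 8730 none here, and 13436 of the 13513 matched the table by gene ID. A gene with several probe sets was represented by the one with the highest mean over the 12 arrays of 9 h.

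The 12 arrays of 9 h (VND7 line and empty-vector line, DEX and DMSO, 3 each) were fitted with limma 3.58.1 in R 4.3.3, with 1 mean per group and a trended prior, for 3 comparisons. A call needed a two-sided Benjamini-Hochberg adjusted p under 0.05 and a log2 difference of at least 1. Arrays of other times were kept out of the fit because some read like the other treatment label. On simulated data for the VND7 comparison, differences were added to a small part of the 22746 probe sets, and to no dim ones. Calls were made for 72% of differences of 1.5 and 90% of differences of 2, and for 0 unchanged probe sets. The simulation does not give the recovery in dim probe sets or with as many changes as in the data. Tables were made with pandas 2.3.3 in Python 3.11.15.

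Named genes were 3 markers, the 15 largest rises and 15 largest falls with groups that did not overlap, every member of a list with at most 8 measured, otherwise the called members with the 4 largest rises and falls, and the 5 largest each way in the other comparisons. The members and the 94 lists, 23 of them written after the gene names had been seen, were chosen with earlier results of these data known; 77 lists had a measured member. Replicate numbers of DEX and DMSO did not pair the arrays: deviations of same-numbered arrays correlated at −0.05, 0.18 and −0.10 in the VND7 line and at −0.07, 0.02 and −0.01 in the empty-vector line. Alternatives were other thresholds, a floor filter, centring, quantile normalization, priors, the arrays that gave the spread, a replicate block and leaving out each array.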

Additional observations from a re-analysis of the deposited data

Results flagged for a closer look

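The effect of DEX differed between the VND7 line and the empty-vector line in 7014 probe sets by the test of the difference itself (limma, adjusted over all probe sets). In the named genes with the largest such differences, the VND7 effect minus the empty-vector effect was 9.98 for AT1G66810, 9.45 for AT1G26290, 9.36 for AT1G09890, 9.31 for AT2G45040 and 9.30 for AT1G24030. On the other side it was −8.58 for AT4G11190, −7.70 for AT3G53980, −7.61 for AT5G45670, −7.38 for BGLU44 and −7.26 for AT1G74470. For AT2G45040 the DMSO arrays of the VND7 line were at the floor, so its value is a lower bound. AT1G66810, AT1G26290 and AT1G24030 had low DMSO values there that recur across arrays, so theirs may be lower bounds too. AT4G11190 had a low value in DEX replicate 2 that recurs in another array, so its difference may be larger in size than read.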

How the results depend on the processing

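Of 4953 values of 332 named genes under the alternatives, 4782 kept their side of the threshold, among them 64 uncalled values that changed sign, 140 lost a call, 31 gained one and 0 called values reversed. For the VND7 line, a minimum log2 difference of 2 gave 3364 calls (1357 higher, 2007 lower) against 7267 (2954 higher, 4313 lower), and no minimum gave 11311 (5102 higher). Centring gave 5189 higher. Leaving out 1 array gave 7085 to 7347 calls, 2864 to 3021 higher and 4221 to 4356 lower. The 18 calls of the empty-vector line became 11 at an adjusted p of 0.01, 5 with the spread of its own arrays, 39 with the floor filter, 8 at a minimum of 2, 33 after centring, 0 with the replicate block (limma; 1033 probe sets had an unadjusted p under 0.05 without the block) and 15 to 24 with 1 array left out. The 7014 differences between lines became 3368 at a minimum of 2 and 6737 to 7129 with 1 array left out. With the replicate block the VND7 line had 7136 calls and the difference 6658. The cause of these shifts was not tested. Of 2618 list counts 199 moved. Signals at the floor limit what can be ranked among dim probe sets, and genes without a name here could not be placed on a list.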
